A study of Mus musculus with 12 samples.

Results

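The genes described here are 73 potassium channel genes of the mouse, all those whose symbol begins with Kcn apart from Kcnt1, Kcnt2, the Kcnip genes, the Kcnd genes and symbols ending in os or as. A gene also needed at least 100 unique transcript counts (UMIs) over 12 cortices. The count tables held 55336 genes, of which 99 had a Kcn symbol. Of these, 10 belonged to the Kcnt, Kcnip and Kcnd groups, 1 ended in os or as, and 15 had fewer than 100 UMIs. Of the members, 71 are annotated as protein coding and 2, Kcnq1ot1 and Kcnmb4os2, as antisense transcripts. Kcnj1 and Kcnmb3 lay just above the minimum, with 116.0 and 116.2 UMIs, and Kcnmb4os1 and Kcng4 just below it, with 82.2 and 80.3.

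Potassium channels let potassium leave the cell, which sets the resting potential, ends action potentials and limits repetitive firing. Voltage-gated (Kv) channels open on depolarization. Calcium-activated channels (BK and SK) open as calcium rises, inward rectifiers (Kir) pass current near rest, and 2-pore-domain (K2P) channels carry leak current. Cortical neuron types differ in the channels they express, and fast-spiking interneurons are known for Kv3 channels. In glia, Kir4.1, encoded by Kcnj10, takes up potassium released by neurons.

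MYT1L is a transcription factor of postmitotic neurons. The comparison of wild type (WT) with heterozygous (Het) mice addressed which cells respond when 1 copy is mutated. Nuclei came from the cortex at postnatal day 21, from 6 WT and 6 Het mice of the MYT1L S710fsX line, and each genotype had 3 males and 3 females. The allele is a germline frameshift on a C57BL/6 background. Mice of both genotypes had been injected as newborn pups with a mix of AAV9 vectors, of which 1 carried a tdTomato reporter with a self-reporting transposon and the other hyPB, a transposase. Sums of UMIs per animal were compared, so n is always animals.

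The 12 tables held 78743 barcodes, of which 0 were shared between animals, and from 23429386 to 59958572 UMIs per animal. The members took 6334493 UMIs, or 1.26% of the total. After limits on depth and removal of likely doublets, 37303 nuclei remained. Of these, 24115 were classed as excitatory neurons, 9091 as inhibitory neurons and 2990 as non-neuronal cells. Kcn genes and Myt1l were kept out of the genes used for clustering. Cell types carry the suffix "-like" because they were named from marker genes. Of the nuclei, 23916 lay in 21 named cell types, 18 of which had enough nuclei to compare, and 13387 lay in clusters that stayed unnamed. No cluster met the criteria for L5 IT, L5 ET or L6 IT neurons or for microglia. The tissue was labelled cortex, but CA-like and DG-like nuclei carried hippocampal markers and MSN-like nuclei carried markers of striatal medium spiny neurons. The CA-like name is the less certain. It rests on 1 cluster with 3 raised CA markers, where the mean log2 rise was 1.2 for CA and 0.99 for L5 IT markers. The DG-like cluster had 6 raised markers and a mean rise of 3.7, against 0.93 for the next list. Summed Myt1l was 981 ± 86.3 CPM (SD, n = 6; CPM is a gene's UMIs scaled to a fixed total per sum) in WT and 1093 ± 62.2 in Het excitatory nuclei. A frameshift need not remove the nuclear transcript, so this level does not check the genotype labels.

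Promoters are printed for 4 members on which the results turn. Kcnk1 was the member that passed the test between genotypes, and Kcnj3 had the lower Het values that came nearest to passing. Kcnj9 and Kcnj10 are neighbours with opposite levels in neurons and non-neuronal cells. Each sequence is from RefSeq (GRCm38.p6), 250 bases before to 50 after the gene's start, 5′ to 3′ on the gene's strand. They lie at chr8:125994852-125995151 (plus strand), chr2:55435720-55436019 (plus), chr1:172329273-172329572 (minus) and chr1:172340960-172341259 (plus). Capitals mark AAGTT, the core letters of the motif bound by the MYT1 family, searched on both strands (AAGTT or AACTT).
Kcnk1: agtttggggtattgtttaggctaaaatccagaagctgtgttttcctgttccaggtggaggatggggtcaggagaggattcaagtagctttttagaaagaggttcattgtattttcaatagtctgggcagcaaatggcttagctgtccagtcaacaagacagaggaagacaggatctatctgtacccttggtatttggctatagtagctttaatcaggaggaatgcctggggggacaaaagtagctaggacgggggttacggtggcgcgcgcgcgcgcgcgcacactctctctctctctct
Kcnj3: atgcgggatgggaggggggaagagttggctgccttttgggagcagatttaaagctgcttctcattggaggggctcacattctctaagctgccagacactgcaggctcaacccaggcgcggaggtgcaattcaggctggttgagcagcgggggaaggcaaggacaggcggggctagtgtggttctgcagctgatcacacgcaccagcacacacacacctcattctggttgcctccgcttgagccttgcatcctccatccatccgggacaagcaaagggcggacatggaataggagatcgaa
Kcnj9: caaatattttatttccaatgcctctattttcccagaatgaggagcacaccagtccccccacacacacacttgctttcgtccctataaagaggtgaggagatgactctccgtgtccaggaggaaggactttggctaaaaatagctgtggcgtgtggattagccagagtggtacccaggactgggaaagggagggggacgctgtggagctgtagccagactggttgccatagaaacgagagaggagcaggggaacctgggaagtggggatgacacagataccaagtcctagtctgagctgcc
Kcnj10: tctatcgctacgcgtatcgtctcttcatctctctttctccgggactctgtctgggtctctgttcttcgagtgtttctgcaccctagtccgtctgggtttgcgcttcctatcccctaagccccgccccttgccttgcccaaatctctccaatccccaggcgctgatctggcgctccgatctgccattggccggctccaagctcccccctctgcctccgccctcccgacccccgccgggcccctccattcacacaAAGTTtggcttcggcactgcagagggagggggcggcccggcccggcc
The motif was present once in the Kcnj10 window, 3 bases after the start, and these letters were not in the other 3 windows. RefSeq gave promoters for 52 members. Of their 71 promoter windows, 23 held the motif (32.4%), against 39.3% of all 32851 windows of the same length. A match is a description of letters and not of binding.

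Channel genes were mainly neuronal at the level of the whole group. The members took 1.21% ± 0.045 (SD, n = 12) of all UMIs in excitatory nuclei, 1.18% ± 0.049 in inhibitory nuclei and 0.273% ± 0.020 in non-neuronal nuclei. Among cell types the share was highest in L4/5 IT-like (1.62% ± 0.073) and Pvalb-like nuclei (1.57% ± 0.064), whose ranges overlapped, and lowest in oligodendrocyte-like nuclei (0.170% ± 0.010). Levels of single genes are given in CPM and can be compared across cells, and the highest and lowest types are those among the 18 compared. Between genes they are given per length, since nuclear RNA holds introns and long genes can collect more reads. Whether counts here scale with length was not tested, and the division raises short genes such as Kcna1 (5.99 kb) and Kcnj9 (8.82 kb). Per 10 kb of gene, the highest mean levels in excitatory nuclei were those of Kcnq1ot1 (71.8 CPM per 10 kb), Kcna1 (62.1), Kcnj9 (55.5) and Kcnh7 (46.7). In inhibitory nuclei Kcnc2 led with 84.4 CPM per 10 kb, and in non-neuronal nuclei Kcna1 led with 270 CPM per 10 kb.

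**Figure D1:**
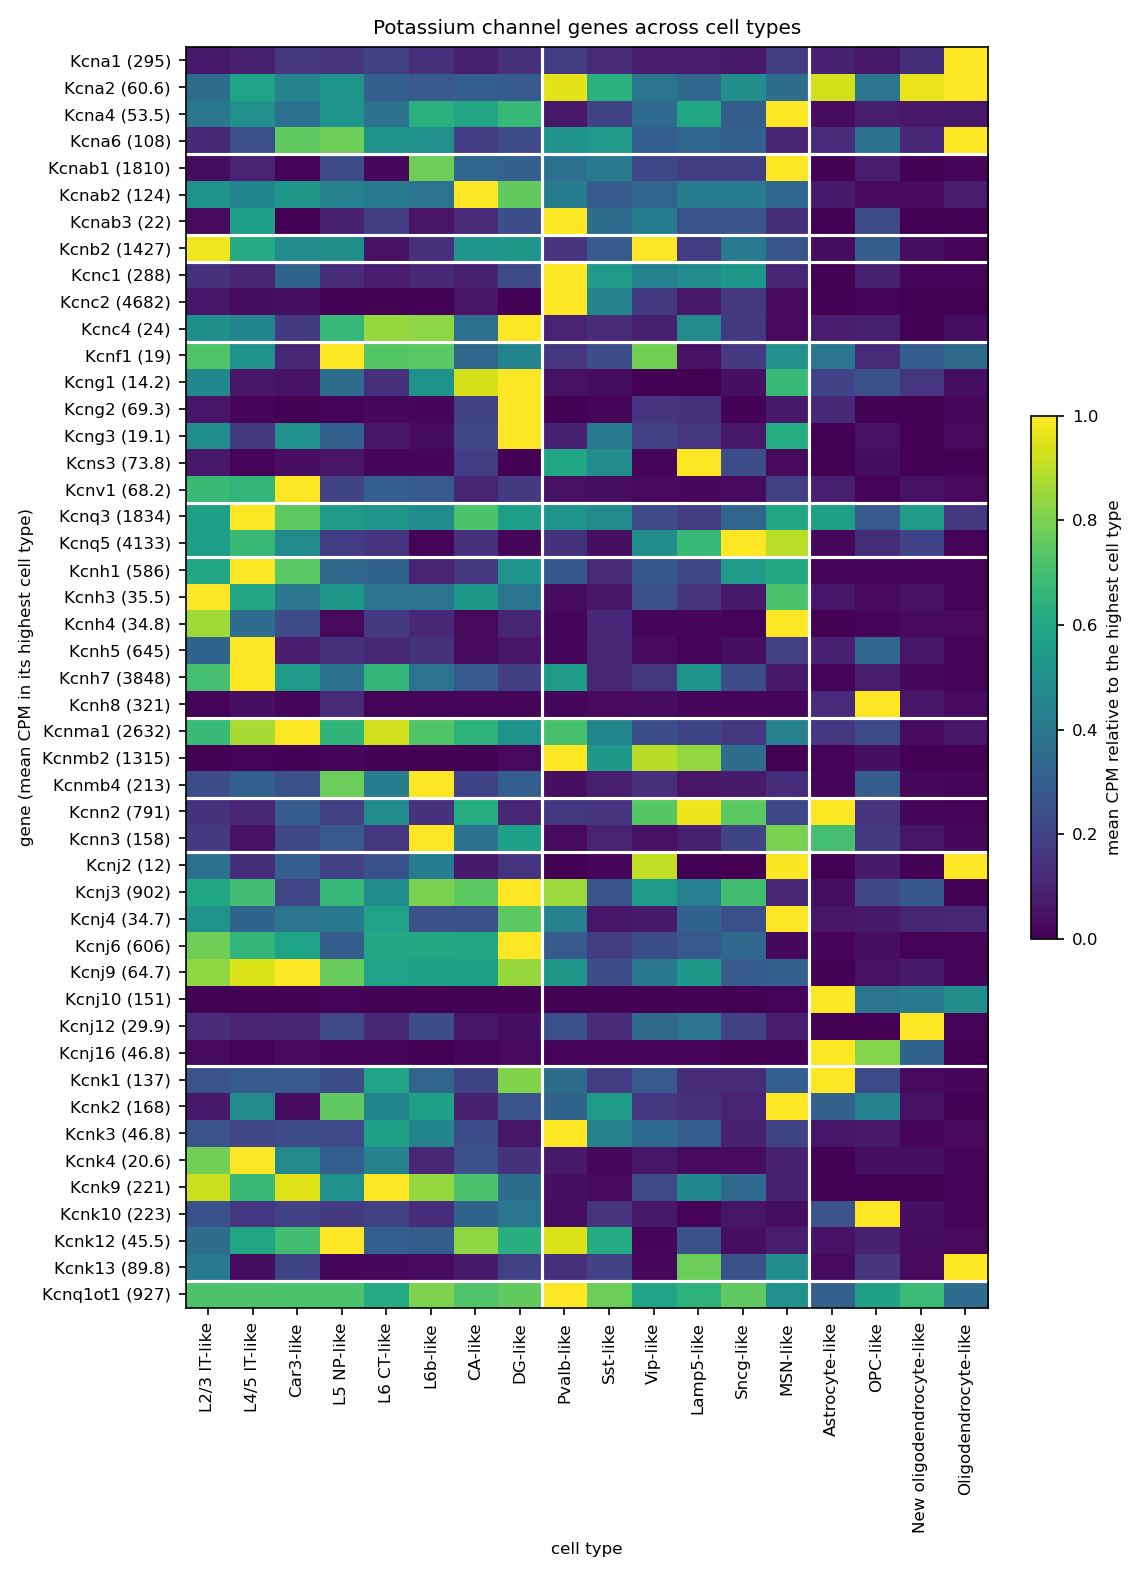
Mean CPM over animals of 47 members that reached 10 CPM in at least 1 of 18 cell types (x axis), as a fraction of the gene's highest cell type (colour). Genes are on the y axis by family, separated by white lines, with their highest mean CPM in parentheses, and vertical lines separate excitatory, inhibitory and non-neuronal types. Kcnmb2 stands out in the Pvalb-like, Vip-like and Lamp5-like columns, Kcnc2 in the Pvalb-like and Sst-like columns, and Kcnj10 and Kcnj16 are near 0 in all neuronal columns.

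The classes were compared with edgeR on sums per animal, with animal as a block and a call at an adjusted p under 0.05 and at least 1 on the log2 scale. Between inhibitory and excitatory nuclei, 55 members were tested. In inhibitory nuclei 9 were higher (16.4%) and 9 lower (16.4%), against 6.7% and 5.74% of the 12730 genes tested. The median log2 difference was −0.13 for members and 0.01 for all genes. Between non-neuronal and neuronal nuclei, 53 members were tested, of which 4 were higher (7.55%) and 41 lower (77.4%), against 15.2% and 23.4% of 12818 genes. The non-neuronal class was mostly of the oligodendrocyte lineage, from OPC-like to oligodendrocyte-like, with 77.25% ± 4.1 of nuclei in WT and 75.44% ± 3.03 in Het. Its values weigh other glia little. Kcnk1 and Kcnn2 were lower in this class (log2 −1.94 and −2.02), although their highest means were in astrocyte-like nuclei (137 and 791 CPM). Members were better expressed than the average tested gene, with a median of 5.29 log2 CPM against 4.34. In non-neuronal nuclei 3 neuron transcripts (Snap25, Syt1 and Rbfox3) reached 3.69% of their neuronal level, which gives the background of neuronal RNA there. Its source was not tested. Kcnk9, at 2.01% of its neuronal level, was the 1 tested member at or below that share, and Kcnj6 (3.9%) was the next.

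**Figure D2:**
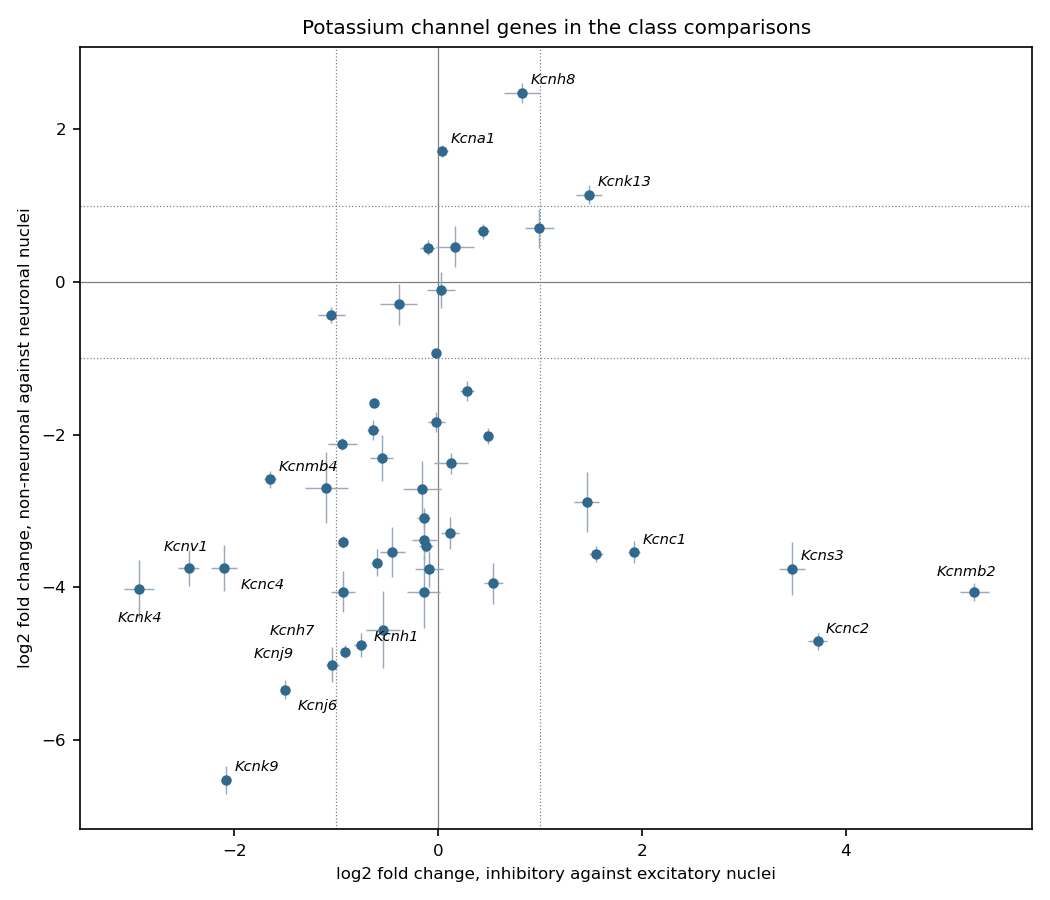
Log2 fold changes with standard errors of 48 members tested in both class comparisons, inhibitory against excitatory (x axis) and non-neuronal against neuronal (y axis). Dotted lines mark 1 on the log2 scale. Most points lie below 0 on the y axis, and Kcnmb2, Kcnc2 and Kcns3 lie farthest to the right.

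Among Kv1 genes, which encode low-threshold channels of axons and axon terminals, Kcna1 was the gene that set oligodendrocyte-like nuclei apart. It reached 295 ± 45.7 CPM there, and the next type, L6 CT-like, had 58.6 ± 8.76 CPM, with no overlap between animals. Across classes Kcna1 was higher in non-neuronal nuclei by 1.72 ± 0.08 (log2, SE; adjusted p = 5.76e-20, edgeR). OPC-like nuclei had the lowest Kcna1 of the 18 types (18.6 ± 13 CPM). Kcna6 and Kcna2 were also highest in oligodendrocyte-like nuclei (108 and 60.6 CPM), although their ranges overlapped those of the next type and the class differences (0.45 and 0.67 on the log2 scale) were under the size needed for a call. Kcna4, which encodes a rapidly inactivating channel, followed the neuronal pattern, at 24.8 ± 3.01 CPM in excitatory and 2.88 ± 2.44 CPM in non-neuronal nuclei. Of the beta subunits, which modify Kv1 gating and traffic, Kcnab1 was 1.55 ± 0.07 higher in inhibitory nuclei and led in MSN-like (1810 ± 278 CPM) and L6b-like nuclei (1411 ± 280 CPM). Kcnab3 was also higher in inhibitory nuclei (log2 1.46 ± 0.13), with 22.0 ± 8.11 CPM in Pvalb-like nuclei. Kcnab2 led in CA-like nuclei (124 ± 37.5 CPM).

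Kv2 genes encode delayed rectifiers of the soma and proximal dendrite. Among the 18 types compared, Kcnb2 (Kv2.2) led in Vip-like (1427 ± 206 CPM) and L2/3 IT-like nuclei (1396 ± 94.4 CPM), whose ranges overlapped. VLMC-like nuclei, named from markers of vascular leptomeningeal cells and too few to compare, had 1908 ± 730 CPM (SD, n = 7 animals) and a range that overlapped both.

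The Kv3 genes encode fast delayed rectifiers that permit brief spikes. In inhibitory nuclei 2 of 4 were called higher, against 16.4% of all members and 6.7% of all genes tested. Kcnc2 (Kv3.2) was 3.73 ± 0.09 higher in inhibitory nuclei on the log2 scale (adjusted p = 1.23e-13, edgeR). Its level was 4682 ± 473 CPM in Pvalb-like and 2093 ± 186 CPM in Sst-like nuclei, with no overlap. Inhibitory types were not alike, since MSN-like nuclei had 112 ± 62.3 CPM of Kcnc2 and L2/3 IT-like nuclei, which are excitatory, 276 ± 54.5 CPM. Kcnc1 (Kv3.1) was 1.92 ± 0.06 higher in inhibitory nuclei and reached 288 ± 48.6 CPM in Pvalb-like nuclei. Kcnc4 went the other way, with a log2 difference of −2.10 ± 0.13 in inhibitory against excitatory nuclei.

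Silent subunits form no channel alone and join Kv2 subunits. Kcns3 (Kv9.3) was 3.47 ± 0.13 higher in inhibitory nuclei (log2; adjusted p = 1.52e-17, edgeR) and highest in Lamp5-like nuclei (73.8 ± 17.7 CPM). Kcnv1 (Kv8.1) was lower in inhibitory nuclei (log2 −2.45 ± 0.10), with 68.2 ± 39.9 CPM in Car3-like and 46.1 ± 11.1 CPM in L2/3 IT-like nuclei. Kcng2 (Kv6.2) was nearly limited to DG-like nuclei by its mean, 69.3 ± 21.1 CPM against 13.3 ± 11.4 in CA-like nuclei, but the ranges of these types overlapped. Kcnf1 was spread more evenly, with a highest mean of 19.0 ± 4.67 CPM in L5 NP-like nuclei. Kcng1 was lower in inhibitory nuclei (log2 −1.1 ± 0.21).

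Kv7 genes encode the subthreshold M-current that restrains repetitive firing. Kcnq3 was highest in L4/5 IT-like nuclei (1834 ± 129 CPM). Kcnq5 spanned a wide range, from 4133 ± 1020 CPM in Sncg-like and 3711 ± 406 CPM in MSN-like nuclei to 33.3 ± 9.86 CPM in oligodendrocyte-like nuclei. Kcnq3 stayed at 462 ± 39.8 CPM in non-neuronal nuclei, against 1181 ± 67.8 CPM in excitatory nuclei, and its non-neuronal level was 43.1% of its neuronal level.

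The Kcnh family holds the EAG, ERG and ELK channels. Kcnh7 (ERG3) and Kcnh1 and Kcnh5 (EAG1 and EAG2) had their highest levels in L4/5 IT-like nuclei, at 3848 ± 325, 586 ± 63.5 and 645 ± 63.3 CPM. For Kcnh7 and Kcnh5 no animal of the next type reached the L4/5 IT-like range. That next type was L2/3 IT-like (2718 ± 297 CPM) for Kcnh7 and OPC-like (214 ± 60.3 CPM) for Kcnh5. Kcnh8, an ELK channel, was the member most restricted to 1 type by the index tau (0.97, where 1 is a single type), with 321 ± 76.2 CPM in OPC-like nuclei and 38.9 ± 52.8 CPM in astrocyte-like nuclei. Kcnh4 was highest in MSN-like nuclei (34.8 ± 11.9 CPM) and Kcnh2 (ERG1), at 5.90 ± 0.88 CPM in inhibitory nuclei, was 2.11 ± 0.17 higher there than in excitatory nuclei.

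BK and SK channels couple calcium to repolarization and afterhyperpolarization. The BK pore gene Kcnma1 was present in all neuron types and highest in Car3-like (2632 ± 334 CPM) and L6 CT-like nuclei (2441 ± 142 CPM). Its auxiliary subunits divided by class. Kcnmb2, whose product inactivates the channel, had the largest rise from excitatory to inhibitory nuclei among the members tested (log2 5.26 ± 0.14, adjusted p = 3.16e-12, edgeR; 17.6 ± 4.43 CPM in excitatory and 696 ± 92.3 CPM in inhibitory nuclei). Kcnmb4, the neuronal subunit that slows gating, was lower in inhibitory nuclei (log2 −1.64 ± 0.06) and led in L6b-like nuclei (213 ± 60.7 CPM). Among SK genes, Kcnn2 was highest in astrocyte-like (791 ± 244 CPM, 8 animals) and Lamp5-like nuclei (770 ± 83.1 CPM), Kcnn3 in L6b-like nuclei (158 ± 35.9 CPM), and Kcnn1 had at most 7.4 ± 2.36 CPM in any type.

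Among inward rectifiers, the G protein-gated channels (GIRK) were neuronal and Kir4.1 was glial. Kcnj3 (GIRK1) and Kcnj6 (GIRK2) were highest in DG-like nuclei, at 902 ± 116 and 606 ± 79.6 CPM, and Kcnj9 (GIRK3) in Car3-like nuclei, at 64.7 ± 21 CPM. Kcnj6 and Kcnj9 were lower in inhibitory than in excitatory nuclei (log2 −1.5 ± 0.04 and −1.04 ± 0.06). Kcnj10 (Kir4.1) was 5.96 ± 0.18 higher in non-neuronal nuclei (adjusted p = 2.12e-25, edgeR), with 151 ± 55.0 CPM in astrocyte-like and 74.2 ± 19.6 CPM in oligodendrocyte-like nuclei, and 0.83 ± 0.40 CPM in excitatory nuclei. The gene bodies of Kcnj9 and Kcnj10 lie 11.9 kb apart on chromosome 1 on opposite strands, and Kcnj9 was lower in non-neuronal nuclei (log2 −5.01 ± 0.23). Kcnj16 (Kir5.1), which joins Kir4.1 in channels, had 46.8 ± 34.2 CPM in astrocyte-like and 38.1 ± 25.2 CPM in OPC-like nuclei. Kcnj12 (Kir2.2) was highest in newly formed oligodendrocyte-like nuclei, but with a spread (29.9 ± 43.0 CPM, 11 animals) larger than its mean.

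Of 8 K2P genes tested in non-neuronal against neuronal nuclei, 6 were lower and 1, Kcnk13, was higher. Over all members tested 77.4% were lower and 7.55% higher, against 23.4% and 15.2% of all genes. Kcnk9 (TASK3) was lower in inhibitory nuclei (log2 −2.08 ± 0.05) and in non-neuronal nuclei (−6.52 ± 0.18), with 221 ± 22.9 CPM in L6 CT-like nuclei. Kcnk4 (TRAAK) had the most negative log2 difference of inhibitory against excitatory nuclei among the members tested (−2.93 ± 0.15), at a low level (11.2 ± 0.95 CPM in excitatory nuclei). Kcnk2 (TREK1) was highest in MSN-like nuclei (168 ± 36.1 CPM), Kcnk10 (TREK2) in OPC-like nuclei (223 ± 71.8 CPM) and Kcnk13 (THIK1) in oligodendrocyte-like nuclei (89.8 ± 35.7 CPM). Kcnk13 was higher in non-neuronal than neuronal nuclei by 1.14 ± 0.13 and in inhibitory than excitatory nuclei by 1.48 ± 0.13. Kcnk1 (TWIK1) was highest by mean in astrocyte-like (137 ± 96.8 CPM, 8 animals) and DG-like nuclei (111 ± 27.3 CPM), followed by L6 CT-like nuclei (80.4 ± 16.3 CPM), and all 3 ranges overlapped in that order of neighbours.

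Of the remaining members, Kcne1 and Kcne2, which encode small accessory subunits, stayed under 1.5 CPM in all 18 types. Kcnq1ot1, the long noncoding RNA within Kcnq1, was the most even member (tau 0.35), from 927 ± 56.6 CPM in Pvalb-like to 285 ± 103 CPM in astrocyte-like nuclei. It overlaps Kcnq1 on the opposite strand, as Kcnmb4os2 overlaps Kcnmb4, and reads of such pairs may not be told apart. Kcnmb4os2 had at most 9.12 ± 5.97 CPM, in L6b-like nuclei, which was also the highest type of Kcnmb4. Kcnu1 had at most 9.67 ± 8.86 CPM in any type. Over the 51 members of at least 10 CPM in their highest type, tau had a median of 0.76. The highest type was DG-like for 7, L4/5 IT-like and Pvalb-like for 6 each, and MSN-like and oligodendrocyte-like for 5 each. In 5 of the 51 (Kcnh8, Kcnc2, Kcnh5, Kcna1 and Kcnh7) the animals of the 2 highest types did not overlap. This was 9.8% of them, against 6.57% of all 12809 genes of at least 10 CPM in their highest type.

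Het and WT were then compared within each class and cell type, with edgeR, genotype as the only term and a call at an adjusted p under 0.05 and at least 0.2 on the log2 scale. Kcnk1 was the 1 member that passed, in excitatory nuclei and in L6 CT-like nuclei, and it was higher in Het in both. L6 CT-like nuclei were named from markers of the corticothalamic neurons of layer 6. Of their 5 clusters, 1 with 758 of the 5137 nuclei was led by Cobll1, Rxfp1 and Brinp3, and Foxp2 and Syt6, which were among the leading genes of the other 4, were not among its 10 leading genes. The type is part of the excitatory class, so the results in both are not separate observations. No member passed in inhibitory or non-neuronal nuclei or in the other 17 cell types.

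In L6 CT-like nuclei, where 39 members were tested, 1 was called (2.56%), against 0.411% of 9001 genes called higher in Het. Kcnk1 encodes TWIK1, a leak channel. Its level ran from 53.9 to 75.4 CPM in the 6 WT animals (median 72.4) and from 86.3 to 107 CPM in the 6 Het animals (median 91.8). Every Het animal lay above every WT animal, and the means were 66.9 ± 9.82 and 93.8 ± 7.28 CPM (SD), 40.2% higher in Het. These levels rest on 50 to 228 UMIs per animal. How many of all genes had no overlap between the genotypes was not counted, here or below. The log2 difference was 0.46 ± 0.09 (SE; adjusted p = 0.0148, edgeR). Without WT male replicate 3 it was 0.40 with an adjusted p of 0.0647, and it passed without each of the other 11 animals. It also passed without the cluster led by Cobll1, an alternative chosen after the data were seen (0.45, adjusted p = 0.0345). The summed levels of MSN markers and of astrocyte markers overlapped between the genotypes in these nuclei, and DG and CA markers were not summed. The summed level of 8 MSN markers was 1120 to 1669 CPM in WT and 1450 to 1614 in Het, and that of 7 astrocyte markers 824 to 1076 in WT and 793 to 1007 in Het. The part of RNA from other cell types in the result was not tested.

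In the whole excitatory class 56 members were tested and Kcnk1 was the 1 called (1.79%), against 0.192% of 14592 genes called higher in Het. Kcnk1 ran from 41.8 to 48.4 CPM in WT (median 43.5) and from 51.4 to 62.6 CPM in Het (median 54.9), again with no overlap. The means were 44.5 ± 3.08 and 56.4 ± 4.58 CPM, and the log2 difference was 0.32 ± 0.07 (adjusted p = 0.0416, edgeR). The call was lost without 9 of the 12 animals, each in turn, and kept without WT male replicate 2, WT female replicate 2 or Het male replicate 2 (log2 0.28 to 0.34, adjusted p from 0.0307 to 0.128 over all 12). It was also lost with a replicate block (0.32, adjusted p = 0.125) and with sex as an added term (0.32, adjusted p = 0.054). With nuclei above the upper limits of depth included, the log2 difference was 0.16 (adjusted p = 0.353). The share of L6 CT-like nuclei among excitatory nuclei was 20.3% ± 3.49 in WT and 22.6% ± 1.78 in Het, and that of DG-like nuclei, where Kcnk1 was also high, 3.00% ± 0.63 and 4.29% ± 1.05. Without CA-like and DG-like nuclei, an alternative chosen after these shares were seen, the log2 difference was 0.29 (adjusted p = 0.0696). In the other 6 cell types where Kcnk1 was tested, the values ran from −0.16 ± 0.14 in L2/3 IT-like to 0.38 ± 0.24 in L5 NP-like nuclei. In inhibitory nuclei the value was 0.07 ± 0.11. Whether the Kcnk1 difference itself varied between cell types was not tested.

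**Figure D3:**
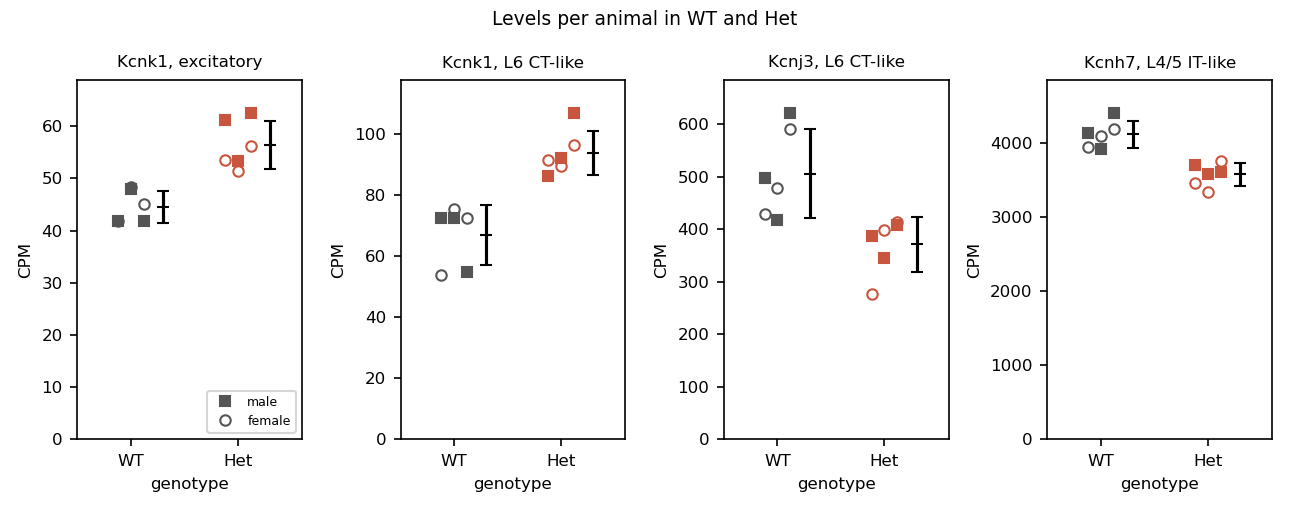
CPM per animal (y axis, from 0) in WT and Het for Kcnk1 in excitatory and L6 CT-like nuclei, Kcnj3 in L6 CT-like nuclei and Kcnh7 in L4/5 IT-like nuclei. Squares are males, circles females, and bars give the mean ± SD of 6 animals. The panels were chosen with the values known, and in all 4 the WT and Het animals do not overlap, though only Kcnk1 passed the test. The share of all genes without such overlap was not counted.

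Below the call, L6 CT-like nuclei held further members with small unadjusted p-values. Of the 39 tested, 13 had an unadjusted p under 0.05 (33.3%), 8 higher and 5 lower in Het, against 9.91% of all genes tested. The members were better expressed than the average tested gene (median 5.76 against 4.88 log2 CPM), and their median log2 difference was 0.08. Kcnj3 came nearest. Its level ran from 417 to 623 CPM in WT (median 489) and from 277 to 413 CPM in Het (median 393), so that every Het animal lay below every WT animal. The log2 difference was −0.49 ± 0.12 with an adjusted p of 0.0723 (edgeR), which did not pass. It passed with DESeq2 (−0.48, adjusted p = 0.00619), without the filter on low counts (−0.46, adjusted p = 7.13e-07) and with a replicate block (−0.48, adjusted p = 0.000478). Without the filter and with the block the log2 difference was no larger, but its SE was smaller (0.071 and 0.072, against 0.12). The replicate numbers used for the block did not pair the animals. It also passed without WT male replicate 2 (−0.54, adjusted p = 0.0284), and did not pass without each of the other 11 animals (adjusted p up to 0.171). The share of all genes that passed under these alternatives is not given here.

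Kcnj3 and Kcnj6, which encode partner subunits of GIRK channels, had opposite signs in L6 CT-like nuclei. Kcnj6 was at 332 ± 45.7 CPM in WT and 396 ± 31.4 CPM in Het (log2 0.23 ± 0.08, adjusted p = 0.198), with overlapping animals. It passed only without WT female replicate 1 (log2 0.30, adjusted p = 0.0363). Kcnc1 was also among the 5 members with the smallest p on the higher side (log2 0.37 ± 0.17, adjusted p = 0.437, edgeR), with overlapping animals. On the lower side the members after Kcnj3 were Kcnh5 (log2 −0.34 ± 0.11, adjusted p = 0.137), Kcnh7 (−0.19 ± 0.06, 0.193), Kcna4 (−0.47 ± 0.17, 0.22) and Kcnv1 (−0.39 ± 0.16, 0.35), whose animals overlapped too. Kcna4 and Kcnv1 were low in these nuclei, at 23.4 and 22.5 CPM in WT.

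**Figure D4:**
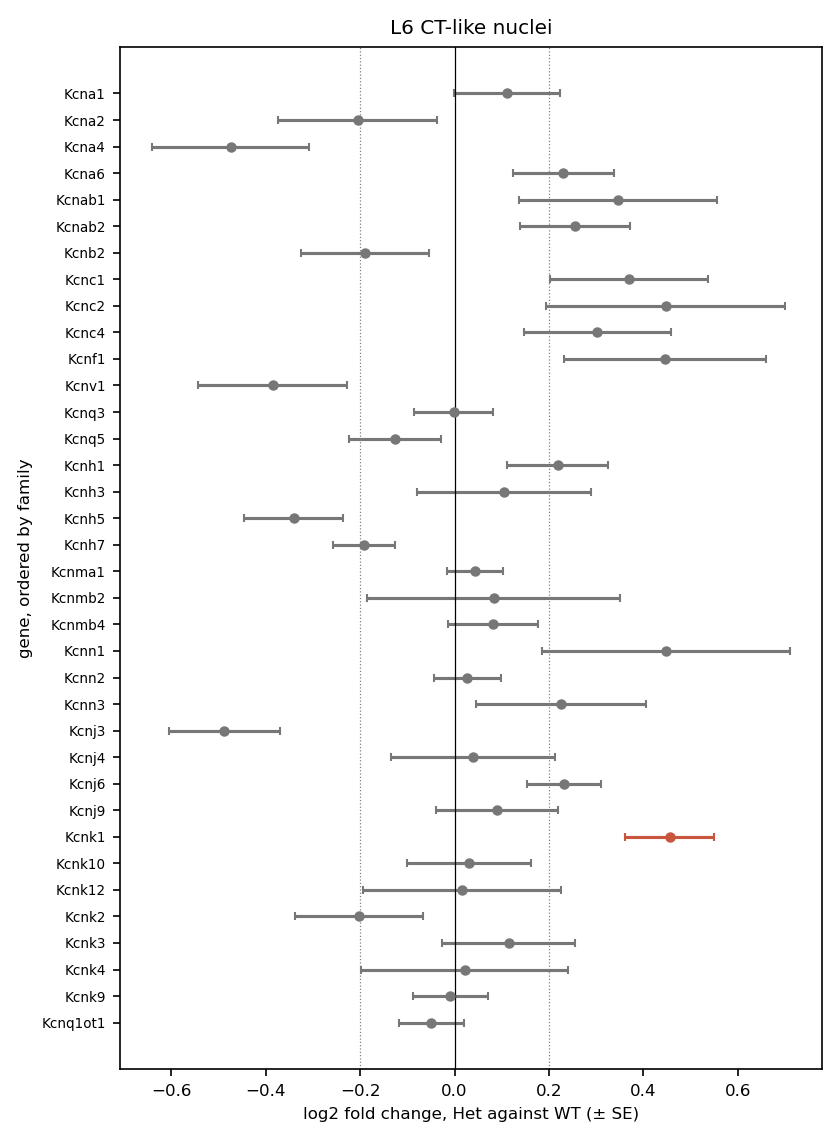
Log2 fold change of Het against WT with its standard error (x axis) for 36 members tested in L6 CT-like nuclei, by family (y axis). Dotted lines mark the size of 0.2 needed for a call, and the red point, Kcnk1 at 0.46, is the 1 member that passed.

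In excitatory nuclei 13 of 56 members had an unadjusted p under 0.05 (23.2%), 9 higher and 4 lower in Het, against 8.52% of all genes tested. The members were better expressed than the average tested gene here too (median 4.78 against 3.64 log2 CPM). The median log2 difference of the members was 0.03 and that of all genes −0.01. After Kcnk1, the smallest were Kcnh7 (−0.18 ± 0.05, adjusted p = 0.204), Kcnj3 (−0.22 ± 0.07, 0.283) and Kcnj6 (0.18 ± 0.06, 0.317), none of which passed. Without the filter on low counts, 3 of 73 members were called (4.11%), against 0.526% of 39756 genes. They were Kcnk1, Kcnj3 (log2 −0.20, adjusted p = 0.0164) and Kcnh5 (−0.24, adjusted p = 0.0137). The shares of called genes are not alike, since members needed at least 100 UMIs and the other genes only a UMI in these nuclei.

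In inhibitory nuclei 51 members were tested and 0 passed, against 0.449% of 11801 genes. An unadjusted p under 0.05 was found for 7 (13.7%), against 7.3% of all genes. The members were better expressed than the average tested gene (median 5.11 against 4.38 log2 CPM). The smallest adjusted p was that of Kcnn3, an SK channel (log2 0.47 ± 0.12, adjusted p = 0.101), followed by Kcnh1 (0.31 ± 0.08, 0.119) and Kcnc2 (−0.31 ± 0.09, 0.146). The makeup of this class differed between genotypes. MSN-like nuclei were 12.6% ± 3.10 of inhibitory nuclei in WT and 20.1% ± 3.22 in Het, and the summed level of 8 MSN markers was 1743 to 2197 CPM in WT and 2499 to 2750 in Het. Kcnn3 was high in MSN-like nuclei (126 ± 21.9 CPM). Kcna4 had its highest mean there (53.5 ± 14.2 CPM), and MSN-like was the third highest type of Kcnh1 (357 ± 68.0 CPM) and Kcng1 (9.53 ± 7.18 CPM). Without MSN-like nuclei, chosen after these shares were seen, the log2 difference was 0.16 for Kcnn3, 0.22 for Kcnh1 and −0.20 for Kcnc2. Their unadjusted p-values there were 0.407, 0.0093 and 0.0421 (edgeR), and no member passed. Kcna4 was at 0.37 in that fit (unadjusted p = 0.141, edgeR). The part of the class makeup in these differences was not tested. Without the filter on low counts, 6 of 73 members were called (8.22%), among them Kcnn3, Kcnc2, Kcna4, Kcnh1 and Kcng1, against 0.592% of 35327 genes. These shares are not alike, since members needed at least 100 UMIs and the other genes only a UMI in these nuclei. Calls of single members with an animal left out were Kcnn3 without WT male replicate 2 (adjusted p = 0.0165), WT female replicate 2 (0.0496) or Het male replicate 3 (0.0294), Kcnc2 without WT male replicate 2 (0.00396) and Kcnh1 without WT female replicate 2 (0.0262).

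In non-neuronal nuclei 23 members were tested and 0 passed (0.0% of 7381 genes), with a smallest adjusted p of 1.0. Of all genes there, 326 had an unadjusted p under 0.05 (4.42%), and of the members 1 (4.35%), Kcnc2, at 0.57 ± 0.27. Kcnc2 had 4.99% of its neuronal level in these nuclei, near the 3.69% of the neuron transcripts. The part of neuronal RNA in this value was not tested. This class held the fewest UMIs, from 134776 to 1068060 per animal. Over the other 17 cell types together, 336 tests of members gave 0 calls, against 0.0406% of 61574 tests of all genes. Of these 336, 43 had an unadjusted p under 0.05, 24 higher and 19 lower in Het. This was 12.8% of the members' tests, against 6.48% of the tests of all genes. In each of these types the members' median level was above that of all tested genes, and the types come from the same animals. Without the filter on low counts, Kcnc2 was called lower in Het in L5 NP-like nuclei (log2 −1.995, adjusted p = 7.85e-07), 1 of 67 members (1.49%) against 0.0837% of all genes there. Its level ran from 10.4 to 90.8 CPM in WT and from 3.08 to 22.9 CPM in Het, and the groups overlapped. The shares without the filter are not alike, since members needed at least 100 UMIs and the other genes only a UMI in these nuclei.

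Of 16 members tested in at least 10 cell types, 9 had at most 2 types of the other sign (56.2%), against 12% of 3389 genes. This limit was chosen after the values were seen, and the types come from the same animals and are not independent. Kcnh7 was lower by mean in Het in 16 of 16 types tested, from −0.40 in DG-like to −0.02 in MSN-like nuclei, and 5 of the 16 had an unadjusted p under 0.05. The smallest adjusted p was 0.104, in L4/5 IT-like nuclei (−0.23 ± 0.06, edgeR), which passed with DESeq2 (adjusted p = 0.00369). The share of all genes that passed with DESeq2 in L4/5 IT-like nuclei is not given here. In that type Kcnh7 ran from 3926 to 4412 CPM in WT (median 4117) and from 3333 to 3764 CPM in Het (median 3598), with no overlap. Kcnh7 in L4/5 IT-like nuclei was singled out after its values were seen. In DG-like nuclei Kcnh7 passed without WT male replicate 2 (adjusted p = 0.0282). Kcnj3 was negative in 14 of 16 types, with 6 at an unadjusted p under 0.05, and passed in L4/5 IT-like nuclei without WT male replicate 1 (adjusted p = 0.0307). Kcnq1ot1 was negative in 17 of 18 types, Kcnq5 in 14 of 16 and Kcnc2 in 9 of 11. Kcnj6 was positive in 12 of 13 types, Kcnh1 in 11 of 13, Kcnc1 in 10 of 11 and Kcnab2 in 10 of 10. Kcnma1 had no such pattern, with 9 positive and 8 negative of 17.

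**Figure D5:**
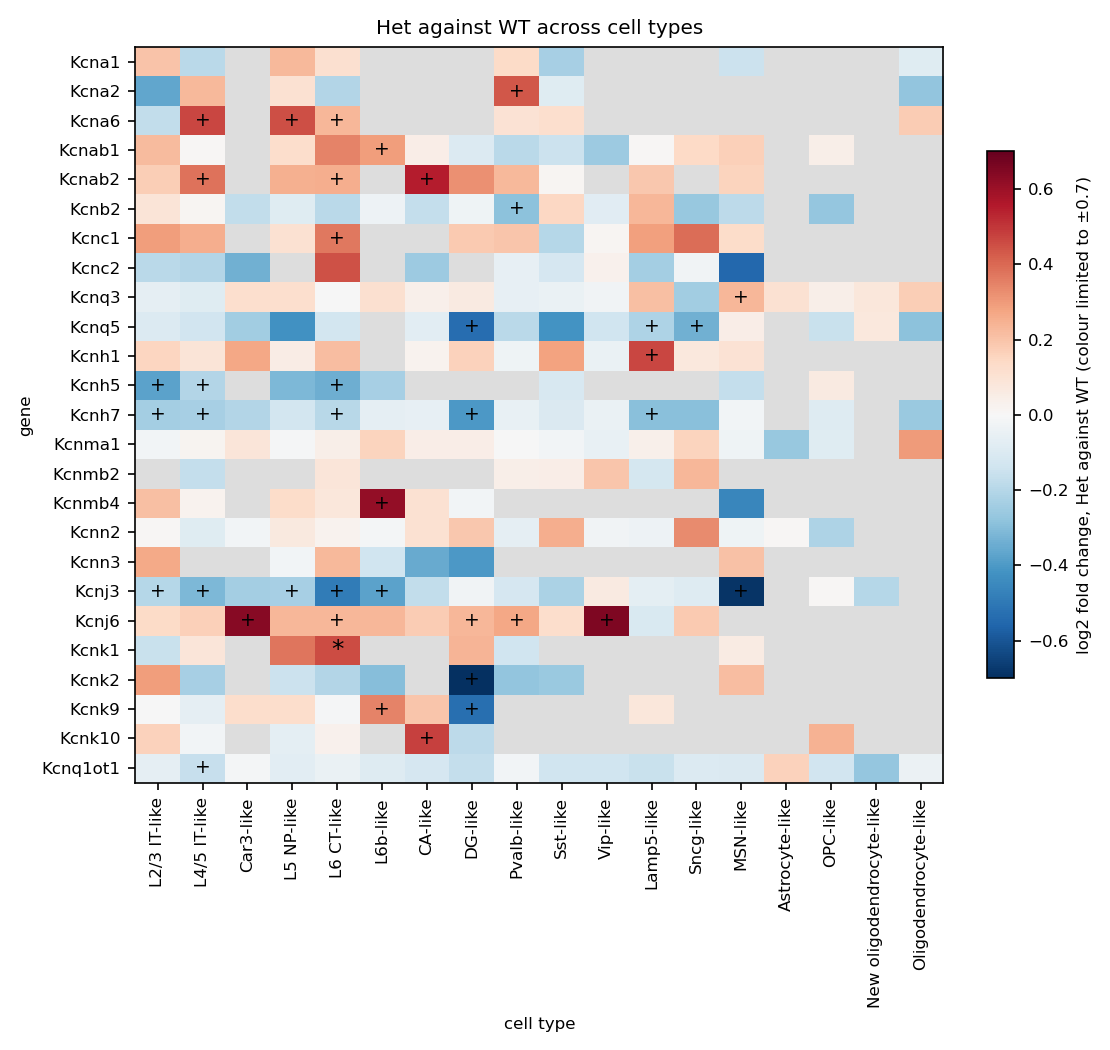
Log2 fold change of Het against WT (colour, limited to 0.7 on either side) for 25 members tested in at least 7 cell types (y axis) across 18 types (x axis). Grey cells were not tested, + marks an unadjusted p under 0.05 and * a call. The row of Kcnh7 is negative in all 16 types tested, and the 1 call is Kcnk1 in L6 CT-like nuclei.

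The difference between genotypes was also compared between the sexes. No member had a genotype by sex term that passed in the 3 classes (0.0% of 33774 tests of all genes). The smallest unadjusted p among members was 0.00197, for Kcnh5 in excitatory nuclei (adjusted p = 0.62, edgeR).

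Potassium channel partners that are not members, 31 genes listed as auxiliary subunits, anchors and the Kcnd, Kcnip and Kcnt genes, were counted beside them. In excitatory nuclei 28 were tested, of which 1 was higher in Het (Kcnip3, 0.36, adjusted p = 0.0165) and 1 lower (Kcnt2, −0.38, adjusted p = 0.013). Of all 14592 genes tested there, 28 were called higher and 4 lower. The same genes were called in L6 CT-like nuclei, where 26 were tested, at 0.46 (adjusted p = 0.0159) and −0.55 (adjusted p = 5.7e-05). Of all 9001 genes tested in that type, 37 were called higher and 15 lower. L6 CT-like nuclei are part of the excitatory class, so these results are not separate observations. In inhibitory nuclei 29 were tested and in non-neuronal nuclei 22, and 0 passed, against 0.449% and 0.0% of all genes.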

How the data were processed

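The P21 cohort comprised 12 cortices (6 WT and 6 Het). According to the methods, nuclei were purified on a density gradient, fixed and barcoded with the ScaleBio kit, with all animals in the same run. Reads were aligned to mm10, and the authors deposited expected counts per gene and nucleus, made with ScaleRna, in which a UMI that matches several genes is divided among them; 92.6% of entries were whole, and no normalization had been applied. The submitters' processing notes also name Seurat 4.3.0 and DESeq2 1.38.3. Strand use in counting is not given in the sources used here. The tdTomato transcript was left out.

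The study's limits were applied: UMIs between 800 and 6000, genes between 300 and 3000, mitochondrial content up to 1%, and log genes over log UMIs from 0.9 upward. They kept 39261 of 78743 barcodes. Of the barcodes, 42.7% had over 6000 UMIs. Doublets were scored with Scrublet in scanpy 1.11.5, and 1958 nuclei (the highest 5% per animal) were removed. Nuclei were clustered (3000 variable genes, 50 components, leidenalg 0.10.2), and 40 of 79 clusters were named from fixed markers. The naming criteria were adjusted after the clusters were seen and before genotypes were compared. Classes leave out 9 clusters (1107 nuclei). Some were led by markers of another class. Others were non-neuronal clusters whose neuronal transcripts were over 25% of the median of neuronal clusters, and these scored highest for microglia markers. Median UMIs per nucleus were 3495, 3375 and 2424 in excitatory, inhibitory and non-neuronal nuclei.

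Counts were summed per animal and group (at least 10 nuclei per animal and 3 animals per genotype), rounded, and tested across all genes with edgeR 4.0.16 (TMM, filterByExpr, robust quasi-likelihood) with Benjamini-Hochberg adjustment. All p-values are two-sided. SE is the absolute log2 fold change divided by the square root of F. CPM is relative to all UMIs of a sum. Alternatives were DESeq2 1.42.0, RLE factors, no filter, a sex term, a replicate block, other nuclei and leaving out each animal. Counts were also simulated from the fitted dispersion trend, so no simulated gene had a dispersion of its own, and recovery in the real counts may differ. On simulated counts with known changes of 0.32, 0.58, 1 and 1.58 (log2), edgeR recovered 32%, 68.8%, 98% and 100% of changed genes in excitatory nuclei (14592 genes, 7 false calls), 14%, 54%, 91.3% and 100% in L6 CT-like nuclei (9001 genes, 12 false calls), 8.16%, 60.4%, 89.6% and 97.8% in inhibitory nuclei (11801 genes, 2 false calls), and 6.12%, 37%, 79.2% and 97.6% in non-neuronal nuclei (7381 genes, 2 false calls).

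The members, lists and tests were chosen with earlier results of these data known. Named genes are the called members, for the cell type with the largest number of calls, 5 members per direction by p, the 3 members with most UMIs per family, the 5 largest class differences in each direction and the 10 members with the highest tau. Other genes were added after their values were seen. Positions are from GRCm38 annotation. The results of some member genes are not reported here and were left out of the figures, while the counts over members include them.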

Additional observations from a re-analysis of the deposited data

Results flagged for a closer look

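The level of Kcna4 in L6 CT-like nuclei of WT female replicate 3, 14.3 CPM, lay far below the other 5 WT animals for its group's range. It was the 1 such value among 24 groups of 6 animals examined, and chance flags about 1 in 20 groups.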

How the results depend on the processing

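In the 3 cell classes, 1 member was called between genotypes. The count was 9 without the filter on low counts, 0 with sex as an added term, 0 with nuclei above the upper limits of depth, 0 without CA-like and DG-like nuclei, and 0 to 3 with each animal left out in turn. In the cell types it was also 1, and 3 with DESeq2, 3 without the filter and 0 to 3 with each animal left out. With a replicate block of sex and number the counts were 0 in classes and 2 in cell types (Kcnk1 and Kcnj3 in L6 CT-like nuclei). The numbers did not pair the animals: deviations of same-numbered animals correlated from −0.232 to 0.191 over 6838 genes. The counts of class differences stayed within 1.5 times under the alternatives run. Of the named members' values under alternatives, 542 kept their direction and their side of the threshold, 15 lost the call, 5 gained it and none reversed. Over all members, 22 calls appeared under an alternative that the reported test did not make. The cause of these changes was not tested. Shares of all genes called are given here only for fits without the filter in excitatory, inhibitory and L5 NP-like nuclei. The other calls gained are therefore not set against such a share. Depth limited genes below the filter: 15 members were tested in no comparison of genotypes. Recovery on simulated counts was lowest for small changes.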
